A study of Mus musculus with 12 samples.

Results

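Small nuclear RNAs (snRNA), small nucleolar RNAs (snoRNA) and small Cajal body RNAs (scaRNA) were followed in CT26, a cell line from a mouse carcinoma of the colon. Their genes were chosen by the gene type that the deposited table gives each row, without regard to their values, and number 71 of 12584 genes: 35 snRNAs, 32 snoRNAs and 4 scaRNAs. RNA sequencing covered 4 groups of 3 libraries, each from cells treated for 24 h with NP-D@MP, NP-D@M, NP@M or PBS. The labels do not explain these abbreviations, and the series title speaks of a nanodrug against CDKs, the cyclin-dependent kinases, coated in membrane of engineered cancer cells. NP-D@MP and NP-D@M are called the groups with D below, after the letter in their names, and NP@M and PBS the groups without D. All groups share the cell line, and separate cultures within a group are not stated in the labels.

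Small nuclear RNAs form the RNA core of the spliceosome. The U1, U2, U4, U5 and U6 RNAs act on most introns and U12 on a minor class. Each is bound by proteins, and in those other than U6 the Sm ring sits on a U-rich stretch of the RNA. Small nucleolar RNAs guide the chemical modification of ribosomal RNA, the C/D box class 2′-O-methylation and the H/ACA class pseudouridylation, while a few (U3, U8 and U13) act in the cleavage or processing of pre-ribosomal RNA or its modification; scaRNAs guide modification of the snRNAs. In mammals most snoRNAs are cut from introns of host genes, many of which encode ribosomal proteins, whereas spliceosomal snRNAs, U3, U8 and U13 are transcribed from genes of their own. Mature members have no poly(A) tail, the labels name a kit that in its standard form selects polyadenylated RNA, and the sources used here do not say which form was used. The values below are therefore reads in these libraries and not amounts of mature small RNA.

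Sequences are shown for the members on which the results turn, as 5′ to 3′ DNA letters from the GENCODE M21 transcripts of the GRCm38 build, in lower case with the motif searched in capitals. The first set holds snRNAs of the families that carried many of the snRNA reads in the groups with D: Rnu1a1 (chr11:87422867-87423030, plus strand) is a U1 gene, Rnu2-10 (chr11:101658238-101658428, plus strand) a U2 gene and Rnu12 (chr15:83149644-83149794, plus strand) the U12 gene. Gm24265 (chr5:115489459-115489599, plus strand) and Gm22818 (chr15:86212554-86212657, minus strand) are predicted snRNA genes with no family name in the annotation. Capitals mark the Sm-type motif, here ATTTNTG or ATTTTTTG on the RNA's own strand, 2 forms that cannot begin at the same base.
Rnu1a1: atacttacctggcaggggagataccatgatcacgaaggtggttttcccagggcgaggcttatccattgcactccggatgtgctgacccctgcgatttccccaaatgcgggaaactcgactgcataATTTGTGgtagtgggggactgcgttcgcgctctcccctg
Rnu2-10: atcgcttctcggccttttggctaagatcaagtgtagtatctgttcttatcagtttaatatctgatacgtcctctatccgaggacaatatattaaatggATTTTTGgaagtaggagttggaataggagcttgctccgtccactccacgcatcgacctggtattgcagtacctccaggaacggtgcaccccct
Rnu12: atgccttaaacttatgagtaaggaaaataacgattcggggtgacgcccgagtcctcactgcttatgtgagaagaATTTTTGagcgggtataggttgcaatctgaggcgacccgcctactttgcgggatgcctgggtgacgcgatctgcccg
Gm24265: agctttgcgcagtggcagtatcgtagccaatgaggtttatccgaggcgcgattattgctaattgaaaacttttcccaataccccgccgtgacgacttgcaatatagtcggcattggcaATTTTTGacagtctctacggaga
Gm22818: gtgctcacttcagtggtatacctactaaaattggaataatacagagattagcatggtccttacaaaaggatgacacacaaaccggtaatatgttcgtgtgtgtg
The motif stood in 26 of the 35 snRNA members (74.3%), in 0 of the 32 snoRNA members, in 21.7% of 1383 GENCODE snRNA transcripts and in 2.71% of 58713 protein-coding transcripts over their first 132 bases. Gm22818 did not hold it and was closest, among named snRNA genes, to the U6 gene Rnu6, at 71.0% identity.

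The second set holds snoRNAs that differed between groups. Snord118 (chr11:69073427-69073561, plus strand) is the U8 RNA, and Snord104 (chr11:106500993-106501062, plus strand) and Snord72 (chr15:5118404-5118484, plus strand) are further C/D box RNAs. Snora17 (chr2:26639190-26639321, minus strand) is an H/ACA RNA, and Gm27326 (chr11:97780182-97780276, minus strand) is a predicted snoRNA gene. Capitals mark the C box TGATGA and the last D box CTGA of those named Snord, and the ACA within the last 8 bases of Snora17 and Gm27326, all on the RNA's own strand.
Snord118: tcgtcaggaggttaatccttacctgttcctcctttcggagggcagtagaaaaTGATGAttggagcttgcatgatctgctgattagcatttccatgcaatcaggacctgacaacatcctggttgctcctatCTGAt
Snord104: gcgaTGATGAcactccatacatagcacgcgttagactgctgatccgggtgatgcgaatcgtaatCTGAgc
Snord72: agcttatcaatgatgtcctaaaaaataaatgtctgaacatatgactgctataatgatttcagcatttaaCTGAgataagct
Snora17: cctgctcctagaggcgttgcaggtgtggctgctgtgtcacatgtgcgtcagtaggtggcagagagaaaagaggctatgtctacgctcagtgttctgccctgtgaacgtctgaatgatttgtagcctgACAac
Gm27326: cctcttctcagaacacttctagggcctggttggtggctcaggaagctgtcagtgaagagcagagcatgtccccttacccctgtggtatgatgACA
TGATGA stood in 10 of the 32 snoRNA members (31.2%), against 26.1% of 1507 GENCODE snoRNA transcripts and 3.69% of the first 132 bases of protein-coding transcripts. An ACA within the last 8 bases stood in 17 members (53.1%), against 46.8% of GENCODE snoRNA transcripts and 8.23% of the protein-coding windows. Snord72 does not hold the letters TGATGA; a shorter or imperfect box was not searched.

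The deposited values are FPKM, fragments per kilobase of gene and per M (mega) fragments of a library size that the table does not state. For every library, 100% of the values times the gene length were whole multiples of a single step (relative tolerance 1e-06), from which reads were recovered. Summed over the table, reads came to 13.4 to 14.2 M in NP-D@MP libraries, 12.8 to 14.9 M in NP-D@M, 15.1 to 15.5 M in NP@M and 13.9 to 15.7 M in PBS. The library size the authors divided by was 0.533 to 0.536 times those reads in NP-D@MP libraries and 0.550 to 0.565 times in NP-D@M, against 1.97 to 2.01 times in NP@M and 1.95 to 2.02 times in PBS. One read in a gene of 100 bases was thus worth 1.19 to 1.40 FPKM with D and 0.322 to 0.355 FPKM without D. Because a member is only 68 to 343 bases long, recovered reads are given beside FPKM for the members on which the results turn, and log2 changes or calls are also given on table reads, that is, after scaling each library to its reads in the table. That scaling shifted the median log2 change of all tested genes by -1.26 where NP-D@M was set against NP@M and by -1.29 where NP-D@MP was set against PBS. Of the 10 markers of colon epithelium looked up only Krt18 and Krt20 were in the table, against 6 of 6 of mesenchyme, 3 of 6 of myeloid cells, 1 of 3 of endothelium, 0 of 5 of lymphoid cells, 0 of 3 of erythroid cells and 0 of 8 of retina, a tissue that the labels' protocol names in conflict with the cell line. The summed level of the 6 mesenchymal markers was 1397 to 1561 FPKM in NP-D@MP libraries, 1217 to 1413 in NP-D@M, 493 to 539 in NP@M and 469 to 519 in PBS, most of it from Vim. Of the 5 tested mesenchymal markers, Vim alone was called higher in NP-D@M over NP@M and 4, among them Col1a1 and Pdgfrb, were called lower, with a median log2 change of -1.70, and on table reads 0 were higher and 5 lower. The sum of Krt18 and Krt20 was 80.0 to 91.1, 73.0 to 87.7, 15.1 to 16.4 and 15.2 to 18.7 FPKM in the same order of groups, with Krt20 alone called higher. On table reads 1 of these 2 was higher and 1 lower in NP-D@M over NP@M, with a median log2 change of -0.44. In NP-D@MP over PBS 1 was higher and 1 lower on either scaling. The sum of the 3 myeloid markers was 13.8 to 21.3, 9.31 to 18.3, 2.62 to 3.25 and 2.57 to 2.85 FPKM. Of 2 tested myeloid markers, 2 were called higher in NP-D@M over NP@M as deposited and 0 on table reads, there with a median log2 change of 0.25. In NP-D@MP over PBS 2 were higher as deposited and 1 on table reads. The counts of replicate libraries gave 6.93 to 57.7 chi-square per degree of freedom, above sampling noise for each pair, and all 12 were kept as separate samples.

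The snRNA genes held far more reads in the groups with D. The 35 snRNAs together held 2265, 2122 and 2040 reads in the NP-D@MP libraries and 2503, 2055 and 3013 reads in the NP-D@M libraries. NP@M libraries had 29, 12 and 60 of them, and PBS libraries 30, 29 and 29. No library without D came near a library with D. Per M reads in the table this was 155 ± 6.81 for NP-D@MP, 177 ± 22.1 for NP-D@M, 2.19 ± 1.56 for NP@M and 1.95 ± 0.121 for PBS (SD, n = 3 each), or 80.6 times as many in NP-D@M as in NP@M and 79.3 times as many in NP-D@MP as in PBS; the summed FPKM stood at ratios of 281 and 273. The first of these ratios depends on single NP@M libraries. Without NP@M replicate 6, with its 60 snRNA reads, NP-D@M had 131 times as many reads per M as NP@M, and the ratio of summed FPKM was 470. Without NP@M replicate 5, with its 12 snRNA reads, the same ratios were 61.1 and 219. Fewer cells with the RNA and less RNA per cell cannot be told apart in such bulk libraries. The snoRNAs as a class showed a smaller difference, 149 ± 8.39 reads per M for NP-D@MP, 187 ± 35.6 for NP-D@M, 24.2 ± 2.73 for NP@M and 23.8 ± 3.42 for PBS, and most of it lay in a single gene. Snora17 held 85.6% of the snoRNA reads of the 6 libraries with D, and without it the other 31 snoRNAs came to 23.6 ± 0.698, 25.0 ± 3.5, 23.5 ± 2.52 and 22.6 ± 3.03 reads per M in NP-D@MP, NP-D@M, NP@M and PBS. As summed FPKM these 31 still stood 3.44 times as high in NP-D@M as in NP@M and 3.51 times as high in NP-D@MP as in PBS. The 4 scaRNAs held 13 to 26 reads in each NP-D@MP library, 0 to 25 in NP-D@M, 1 to 12 in NP@M and 2 to 5 in PBS.

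**Figure D1:**
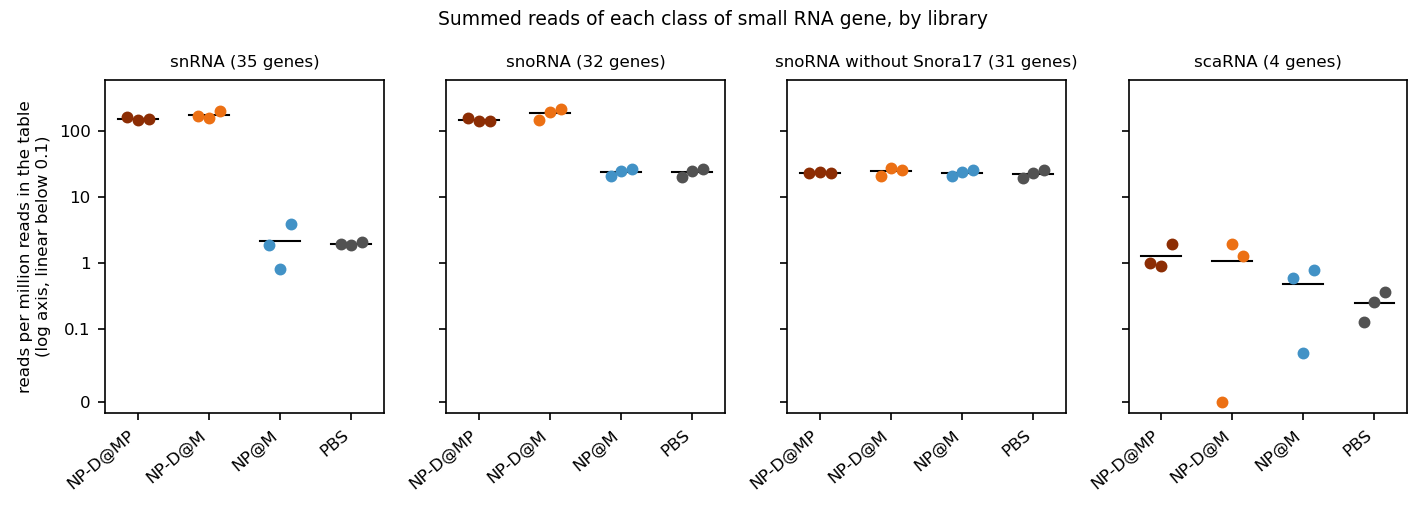
Summed recovered reads per M reads in the table (log axis, linear below 0.1) of the 35 snRNAs, the 32 snoRNAs, the 31 snoRNAs other than Snora17 and the 4 scaRNAs, for each library of NP-D@MP, NP-D@M, NP@M and PBS (points) with the group mean (line). The snRNA points lie at 149 to 202 with D and at 0.797 to 3.88 without D, while the snoRNA points without Snora17 lie at 19.4 to 28.0 in all 4 groups.

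Other short RNAs also held more reads with D. The 138 other genes under 300 bases held 4391 ± 702 reads per M in NP-D@MP and 3496 ± 1119 in NP-D@M, against 872 ± 229 in NP@M and 1500 ± 51.0 in PBS, and the 89 protein-coding genes under 600 bases held 21205 ± 499 and 20022 ± 1443, against 5086 ± 213 and 4921 ± 163. The 7SK RNA gene Rn7sk, whose RNA restrains the elongation kinase CDK9, summed to 171 reads over the NP-D@MP libraries and 148 over the NP-D@M libraries, against 36 in NP@M and 24 in PBS. Histone genes of the replication-dependent clusters, most of whose mRNAs also lack a poly(A) tail, were called higher in 29 and lower in 0 of 38 tested genes in NP-D@M over NP@M (23 and 2 on table reads), where 41.8% and 47.7% of all tested genes were called higher and lower (17.5% and 70.5% on table reads); this list was added after seeing the data. The part of gene length, of poly(A) selection and of the library size in the members' values was not tested.

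NP-D@M was set against NP@M to compare the preparation with D to the one without it. A comparison written as NP-D@M over NP@M has NP-D@M on top of the fold change. Calls rest on limma, fitted on log2(FPKM + 1) of all 12 libraries, with a Benjamini-Hochberg adjusted p under 0.05 over the 10101 genes with at least 1 FPKM in at least 3 libraries. Of the 71 members 57 passed that filter, 37 of them through the libraries with D alone and 8 through those without D alone, so these members had to differ between the groups and their counts are a description. Called higher were 36 members and lower 7, where 41.8% of all tested genes were called higher and 47.7% lower. By class, 26 of 29 tested snRNAs were called higher and 0 lower, 10 of 26 tested snoRNAs higher and 7 lower, and 0 of 2 tested scaRNAs either way. All 29 tested snRNAs passed the filter through the libraries with D alone, so that a call of lower was hardly open to them. On table reads, with 17.5% of all tested genes called higher and 70.5% lower, 33 members were higher and 9 lower, 26 and 0 of them snRNAs and 7 and 9 snoRNAs. The median log2 change was 2.17 over the 57 members and -0.19 over all tested genes, and 1.43 and -1.46 on table reads.

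NP-D@MP and PBS share no library with that comparison, and its values are given beside the first. Called higher were 42 members and lower 7, where 90.5% of all tested genes were called, 43.2% higher and 47.3% lower. On table reads, with 17.5% called higher and 70.7% lower, the counts were 32 and 8. Of the members called higher, 32 were called in both comparisons, 88.9% of those of NP-D@M over NP@M and 76.2% of those of NP-D@MP over PBS; of the 7 called lower in each, 5 (71.4%) were the same. Over all tested genes, those called higher in both made up 95.8% and 92.6% of the calls of the same comparisons, and those called lower in both 95.3% and 96.0%. On table reads 27 members were called higher in both, 81.8% and 84.4% of the members called, where over all tested genes 1594 were called higher in both, of 1765 and 1771 called in each, and 7 lower in both, 77.8% and 87.5%, where over all tested genes it was 98.2% and 97.9%.

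**Figure D2:**
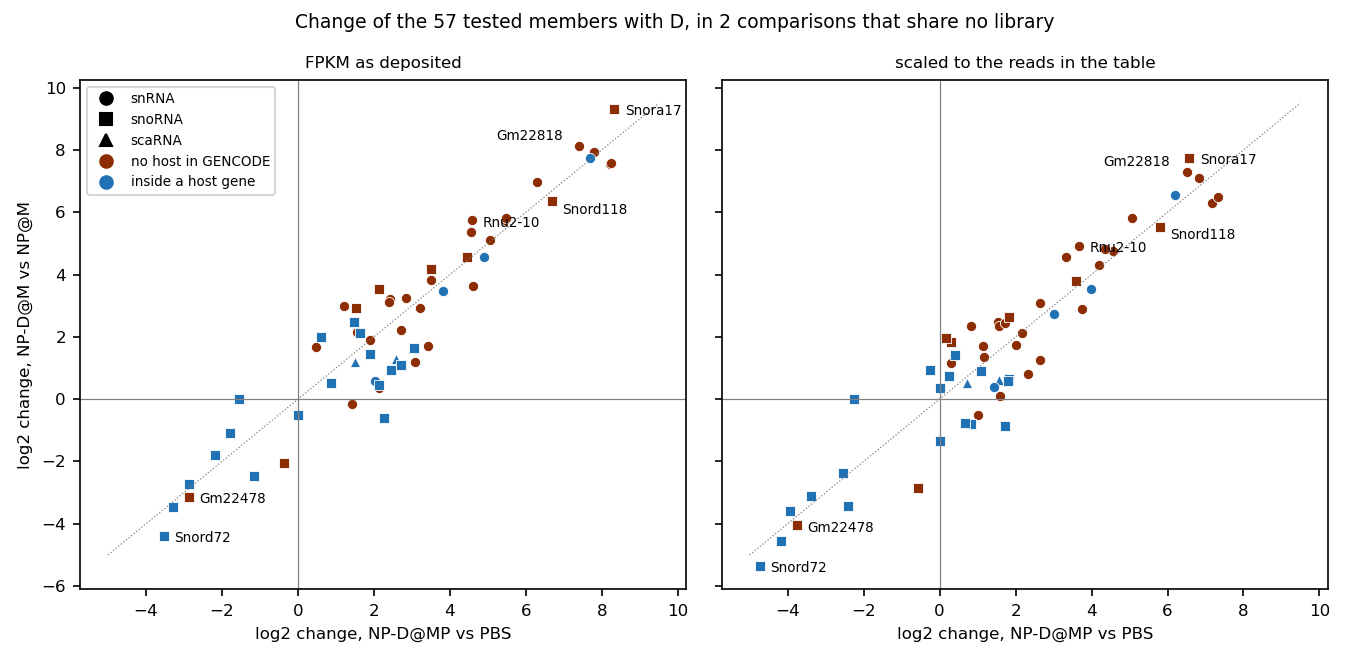
Log2 change of the 57 tested members in NP-D@M over NP@M (vertical axis) against NP-D@MP over PBS (horizontal axis), on log2(FPKM + 1) as deposited (left) and after scaling to the reads in the table (right). Marker shape gives the class and colour whether GENCODE places the member inside a host gene on the same strand; the dotted line marks equal changes, with Snora17 at 9.32 and 8.33 and Snord72 at -4.39 and -3.52 in the left panel.

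Without any filter, 32 of the 35 snRNAs had more reads in the 6 libraries with D than in the 6 without, and 15 had no read at all in those 6. The 3 with fewer reads were Gm24445, with 18 reads in a single NP@M library, Gm25926, with 6 and 9 reads in 2 PBS libraries, and Gm24461, with 3 reads in 1 NP-D@MP library against 3, 8 and 2 reads in the PBS libraries. Of the 32 snoRNAs 19 had more, 12 fewer and 1 as many reads with D, and all 4 scaRNAs had more. Members with no read in any library with D numbered 5, and members with no read in any library without D numbered 21.

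**Figure D3:**
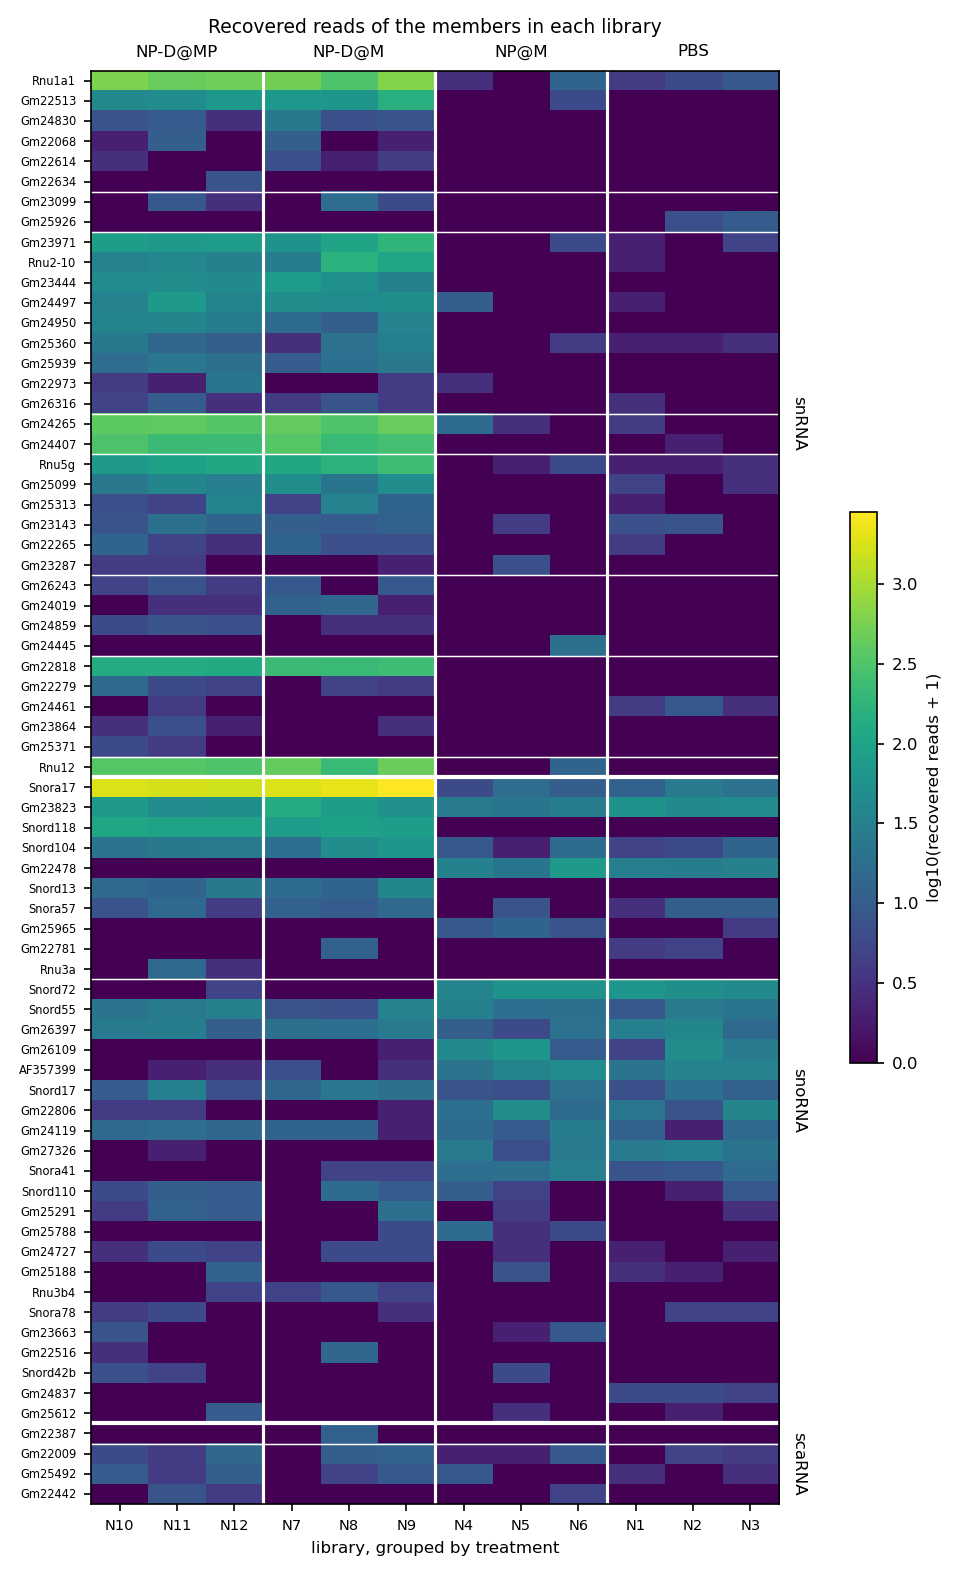
Recovered reads of all 71 members in each of the 12 libraries (colour, log10 of reads + 1), with libraries named by their number in the sample titles and grouped as NP-D@MP, NP-D@M, NP@M and PBS, and with snRNAs ordered by family and snoRNAs and scaRNAs by members without, then with, a host gene. For snRNAs the 6 libraries on the right are nearly all dark, which stands for few or no reads, while Snord72, Gm26109, AF357399, Gm22806, Gm27326, Snora41 and Gm22478 are dark in most or all of the 6 on the left.

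Among the U1 genes, Rnu1a1, which pairs with the 5′ splice site as part of the U1 particle, carried most reads. It had 614, 442 and 484 reads in the NP-D@MP libraries and 509, 317 and 640 reads in the NP-D@M libraries. It had 2, 0 and 12 reads in NP@M and 3, 5 and 8 in PBS. Every library with D was above every library without it. Its level was 423 ± 73.1 FPKM in NP-D@MP, 370 ± 104 in NP-D@M, 0.918 ± 1.26 in NP@M and 1.11 ± 0.576 in PBS (SD, n = 3 each). The log2 change was 7.75 ± 0.38 (SE) in NP-D@M over NP@M (limma adjusted p = 3.74e-09) and 7.67 ± 0.38 in NP-D@MP over PBS (limma adjusted p = 4.08e-09), and 6.54 and 6.20 on table reads. Rnu1a1 lies in an intron of Tex14, a gene of germ cell bridges, which was at 0 FPKM in every NP-D@M and NP@M library and at 0.118 ± 0.0721 FPKM in NP-D@MP against 0.0108 ± 0.0188 in PBS.

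The 6 members that are at least 90% identical to Rnu1a1 or another named U1 gene, Rnu1a1 included, summed to 508 to 667 reads in NP-D@MP libraries, 389 to 802 in NP-D@M, 0 to 17 in NP@M and 3 to 8 in PBS. Gm22068 and Gm22634 have the same 164 letters as Rnu1a1, yet they held 0 to 10 and 0 to 7 reads in the libraries with D, so how reads were shared out among identical copies is not given by the data and the family sum is the firmer value. Gm22513, 99.4% identical to Rnu1a1, held 43 to 68 reads in NP-D@MP libraries and 65 to 151 in NP-D@M, against 0 to 5 in NP@M and 0 in PBS. Gm23099 and Gm25926, at 68.9% and 76.2% identity, held at most 16 reads in any library.

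The U2 genes, whose RNA pairs with the branch site of the intron, showed the same order of groups. The 9 members at least 90% identical to Rnu2-10 summed to 268 to 313 reads in NP-D@MP libraries and 241 to 464 in NP-D@M, against 0 to 12 in NP@M and 1 to 6 in PBS. Rnu2-10 had 33, 39 and 32 reads in NP-D@MP, 28, 161 and 108 in NP-D@M, 0 in each NP@M library and 1, 0 and 0 in PBS. The NP-D@M libraries were thus spread over the whole range with D. Its level was 24.5 ± 2.10 FPKM in NP-D@MP and 67.5 ± 49.4 in NP-D@M, against 0 in NP@M and 0.0568 ± 0.0984 in PBS. Its log2 change was 5.74 ± 0.48 in NP-D@M over NP@M (limma adjusted p = 3.82e-07), at least 131-fold higher against a floor of 3 reads per library and at least 36.7-fold higher on table reads. These bounds rest on NP-D@M replicate 8, with 161 reads, and without it they were 83.7-fold and 23.2-fold. Gm23971 and Gm24950 have the same 191 letters as Rnu2-10. Of the 9 members 8 were called higher in NP-D@M over NP@M and 9 of 9 in NP-D@MP over PBS on either scaling, where 41.8% and 43.2% of all tested genes were called higher (17.5% in each on table reads), and each passed the filter through the libraries with D alone.

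Gm24265 and Gm24407 lie within 1 kb of each other on chromosome 5 and are 98.6% identical. To the named snRNA genes compared, among which was no U4 gene, Gm24265 was at most 58.5% identical. Gm24265 had 381, 395 and 339 reads in NP-D@MP and 426, 321 and 446 reads in NP-D@M. It had 15, 2 and 0 reads in NP@M and 3, 0 and 0 reads in PBS. The groups with D did not overlap those without it. Gm24407 had 211 to 350 reads in the libraries with D and 1 read over the 6 libraries without D. The log2 change in NP-D@M over NP@M was 7.55 ± 0.43 for Gm24265 (limma adjusted p = 1.09e-08) and 7.92 ± 0.15 for Gm24407 (limma adjusted p = 2.46e-11), and in NP-D@MP over PBS 8.23 ± 0.43 and 7.81 ± 0.15 (limma adjusted p = 5.28e-09 and 2.12e-11). On table reads these changes were 6.31 for Gm24265 and 7.09 for Gm24407 in NP-D@M over NP@M, and 7.16 and 6.83 in NP-D@MP over PBS, all called higher.

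The U5 family, whose RNA holds the exons together during splicing, had 6 members at least 90% identical to Rnu5g, which summed to 124 to 192 reads in NP-D@MP libraries and 192 to 317 in NP-D@M, against 0 to 10 in NP@M and 4 to 15 in PBS. Rnu5g itself had 73, 92 and 115 reads in NP-D@MP and 116, 171 and 238 in NP-D@M, against 0, 1 and 5 in NP@M and 1, 1 and 2 in PBS. Each NP-D@M library was above each NP-D@MP library by reads, but its FPKM of 84.2, 105 and 139 in NP-D@MP and 119, 203 and 250 in NP-D@M overlapped, and NP-D@MP over NP-D@M was not called (log2 change -0.76 ± 0.33, limma adjusted p = 0.283). Against the groups without D its log2 change was 6.98 ± 0.33 in NP-D@M over NP@M (limma adjusted p = 2.62e-09) and 6.29 ± 0.33 in NP-D@MP over PBS (limma adjusted p = 6.32e-09). Rnu5g overlaps Parp16 on the other strand, and since the strand setting is not given, reads of the pair cannot be told apart.

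Rnu12, the RNA that recognises the branch site of minor-class introns, had 349, 347 and 315 reads in NP-D@MP and 433, 220 and 456 in NP-D@M. It had 0, 0 and 12 reads in NP@M and 0 in each PBS library. Its level was 302 ± 8.39 FPKM in NP-D@MP, 303 ± 89.8 in NP-D@M, 0.853 ± 1.48 in NP@M and 0 in PBS. Its log2 change was 7.59 ± 0.41 in NP-D@M over NP@M (limma adjusted p = 7.24e-09) and 8.24 ± 0.41 in NP-D@MP over PBS (limma adjusted p = 3.52e-09), there at least 452-fold higher against 3 reads per library and at least 122-fold higher on table reads.

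Genes like U6, the RNA that forms the catalytic centre of the spliceosome and is made by RNA polymerase III, had few reads apart from Gm22818. The 4 members at least 90% identical to Rnu6 summed to 9 to 16 reads in NP-D@MP libraries and 11 to 19 in NP-D@M, against 0 to 18 in NP@M, all in 1 library, and 0 in PBS. Gm24019, Gm24859 and Gm26243 have the same 107 letters, and none had a read without D. Beside Gm22818, the other 4 members nearest to Rnu6, at 68.2% to 86.0% identity, held at most 14 reads in any library. Rnu1a1, Rnu12, Gm24265, Gm24407, Gm22818 and Rnu5g together held 77.8% of the snRNA reads of the 6 libraries with D.

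Gm22818, whose letters share no stretch of 50 bases with another gene's GENCODE transcript, varied little between replicates. It had 132, 132 and 124 reads in NP-D@MP and 225, 221 and 240 reads in NP-D@M. All 6 libraries without D had 0 reads. Its level was 168 ± 1.42 FPKM in NP-D@MP and 277 ± 17.9 in NP-D@M, and 0 in NP@M and PBS. The log2 change was 8.12 ± 0.08 in NP-D@M over NP@M (limma adjusted p = 4.08e-14), at least 293-fold higher against 3 reads per library and at least 82.1-fold higher on table reads. In NP-D@MP over PBS it was 7.40 ± 0.08 (limma adjusted p = 1.14e-13), at least 174-fold and 46.8-fold higher on the same scales.

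NP-D@MP was compared with NP-D@M to set the preparation with P in its name against the one without. Gm22818 was the single member called, 1 of 57 and lower, where 0.0495% of all tested genes were called, 0.0396% higher and 0.0099% lower. The log2 change was -0.72 ± 0.08 (limma adjusted p = 0.00435), its 3 NP-D@MP libraries were below its 3 NP-D@M libraries, and on table reads it was -0.78 (limma adjusted p = 0.00156). With limma voom on the recovered reads the log2 change was -0.78 and the adjusted p 0.34, and the call also ended when only the 6 libraries compared were fitted. A further 13 members had an unadjusted p under 0.05 and did not pass, among them Snord118 (log2 change 0.32 ± 0.11, limma adjusted p = 0.222) and Rnu2-10 (-1.07 ± 0.48, limma adjusted p = 0.294). Without NP-D@M replicate 9, 5 members were called higher and 4 lower, and without NP-D@M replicate 7, 1 and 3, so these counts rest on single libraries.

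**Figure D4:**
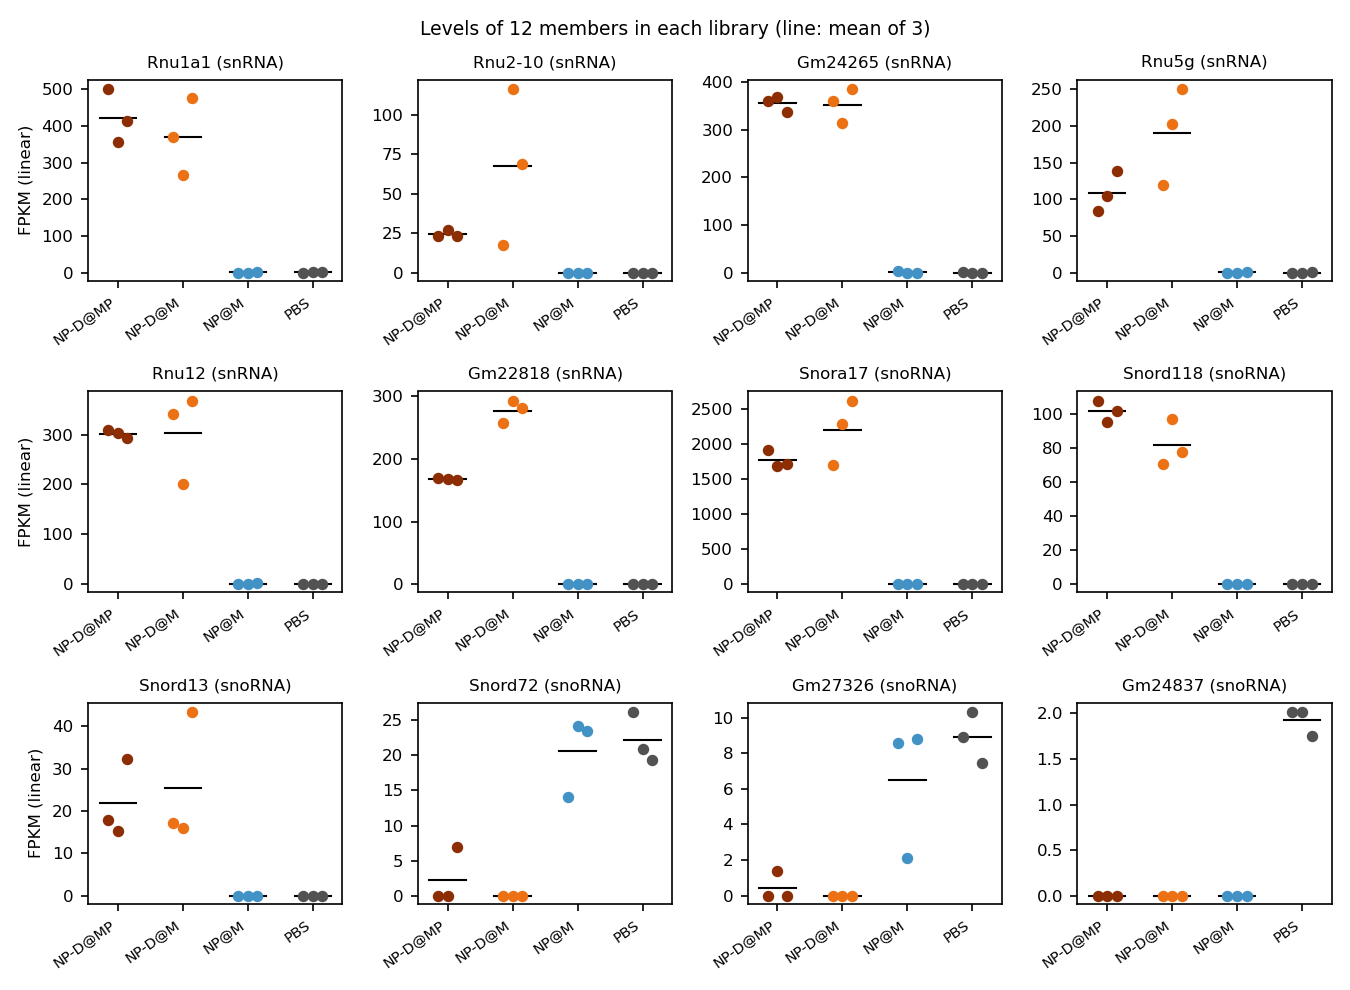
FPKM (linear axis from 0, a scale of its own in each panel) of 12 members in each library of NP-D@MP, NP-D@M, NP@M and PBS (points) with the group mean (line). The first 9 panels stand at or near 0 without D, and Gm22818 stands at 167 to 170 FPKM in NP-D@MP and 258 to 293 in NP-D@M. Snord72 and Gm27326 are lower with D, and Gm24837 is at 0 in every group but PBS.

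Among the snoRNAs outside a host gene of GENCODE, Snora17, an H/ACA RNA, had the highest level of all members with D. It had 1890, 1690 and 1618 reads in NP-D@MP and 1886, 2189 and 2842 reads in NP-D@M. It had 5, 16 and 10 reads in NP@M and 11, 26 and 19 reads in PBS. The lowest library with D was far above the highest without it. Its level was 1774 ± 123 FPKM in NP-D@MP, 2203 ± 466 in NP-D@M, 2.59 ± 1.43 in NP@M and 4.75 ± 1.88 in PBS, with a log2 change of 9.32 ± 0.30 in NP-D@M over NP@M (limma adjusted p = 1.61e-10) and 8.33 ± 0.30 in NP-D@MP over PBS (limma adjusted p = 3.28e-10). Its interval lies within Snhg7, a noncoding snoRNA host gene, in the RefSeq gene table of GRCm38, though not in GENCODE M21.

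Snord118, the U8 RNA of large ribosomal subunit processing, had 109, 98 and 98 reads in NP-D@MP and 80, 95 and 86 in NP-D@M, and 0 in all 6 libraries without D. At 102 ± 6.12 FPKM in NP-D@MP and 81.7 ± 13.7 in NP-D@M, it was at least 137-fold higher in NP-D@MP than in PBS and at least 112-fold higher in NP-D@M than in NP@M against 3 reads per library (limma adjusted p = 5.11e-12 and 8.91e-12), or at least 36.8-fold and 31.4-fold on table reads. Snord13, the U13 RNA of small subunit maturation, had 14, 12 and 24 reads in NP-D@MP, 15, 12 and 37 in NP-D@M and 0 in all libraries without D. Its log2 change was 4.58 ± 0.33 in NP-D@M over NP@M and 4.44 ± 0.33 in NP-D@MP over PBS (limma adjusted p = 1.08e-07 and 1.40e-07), and 3.79 and 3.60 on table reads, where both were called higher. The libraries with D and without it did not overlap for either gene.

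The U3 genes, whose RNA is needed for the first cleavages of pre-ribosomal RNA, had few reads. Rnu3b4 had 0, 0 and 4 reads in NP-D@MP and 4, 8 and 4 in NP-D@M, and Rnu3a had 0, 14 and 2 in NP-D@MP and 0 in NP-D@M. Both had 0 reads in all libraries without D. Rnu3b4 was called higher in NP-D@M over NP@M (log2 change 2.0 ± 0.42, limma adjusted p = 0.000764) and not in NP-D@MP over PBS (0.62 ± 0.42, limma adjusted p = 0.176), on table reads likewise (1.43 and 0.42), and Rnu3a did not pass the filter. Snord104, a C/D box RNA, had 20, 24 and 26 reads in NP-D@MP and 17, 48 and 66 in NP-D@M, against 8, 1 and 15 in NP@M and 4, 5 and 12 in PBS. Its log2 change was 4.18 ± 0.62 in NP-D@M over NP@M (limma adjusted p = 5.14e-05) and 2.65 on table reads (limma adjusted p = 0.00327).

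Of 26 tested snoRNAs, 14 were called higher and 7 lower in NP-D@MP over PBS, and 7 and 8 on table reads. Over all tested genes 43.2% were called higher and 47.3% lower, and 17.5% and 70.7% on table reads. Of the 14 snoRNAs called higher, 7 kept the call on table reads. Gm23823, Snora57, Gm26397, Snord17 and Snord55 were among those that lost it. Gm23823, a predicted snoRNA gene antisense to Enox1, stood at 60.7 ± 14.6 FPKM in NP-D@MP and 90.7 ± 36.4 in NP-D@M, against 6.43 ± 0.657 in NP@M and 13.0 ± 1.96 in PBS. Its reads numbered 71, 45 and 51 in NP-D@MP and 132, 82 and 55 in NP-D@M, against 25, 21 and 27 in NP@M and 57, 42 and 45 in PBS, so that NP-D@MP and PBS overlapped by reads. Its log2 change in NP-D@MP over PBS was 2.13 ± 0.26 (limma adjusted p = 1.16e-05), and 0.31 on table reads (limma adjusted p = 0.289). Snora57 had 7, 14 and 3 reads in NP-D@MP and 11, 9 and 14 in NP-D@M, against 0, 7 and 0 in NP@M and 2, 10 and 10 in PBS. It stood at 7.21 ± 4.88 FPKM in NP-D@MP and 9.59 ± 1.69 in NP-D@M, against 0.532 ± 0.922 in NP@M and 1.68 ± 1.08 in PBS, with a log2 change in NP-D@MP over PBS of 1.53 ± 0.49 (limma adjusted p = 0.0114), and 0.18 on table reads (limma adjusted p = 0.776). Gm26397 had 25, 28 and 10 reads in NP-D@MP and 18, 17 and 25 in NP-D@M, against 10, 5 and 19 in NP@M and 30, 38 and 14 in PBS. Its direction turned in NP-D@MP over PBS: its log2 change was 1.47 ± 0.41 as deposited (limma adjusted p = 0.00497) and -0.25 on table reads (limma adjusted p = 0.586). Snord55 had 20, 25 and 31 reads in NP-D@MP and 7, 6 and 33 in NP-D@M, against 32, 17 and 18 in NP@M and 8, 26 and 21 in PBS. Its log2 change in NP-D@M over NP@M was not called on either scaling, at 0.94 ± 0.55 as deposited and -0.75 on table reads (limma adjusted p = 0.126 and 0.211).

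The members with the highest levels in PBS were all snoRNAs, and 6 of these 8 lie inside a host gene. In order of the mean they were Snord72 (22.1 ± 3.57 FPKM), Gm23823 (13.0 ± 1.96), Gm26109 (12.6 ± 10.7), Gm27326 (8.90 ± 1.41), Snord55 (7.82 ± 3.97), AF357399 (7.73 ± 2.22), Gm26397 (6.75 ± 2.81) and Gm22478 (6.33 ± 0.735); from Gm23823 on, neighbours in this order differed by less than their spread. Of these 8, Snord72, Gm26109, Gm27326, AF357399 and Gm22478 were called lower in both comparisons with D, on both scalings. Since the 8 were chosen by their level in PBS, a group of the second comparison, this is a description. Over all tested genes 45.4% were called lower in both comparisons as deposited and 69.2% on table reads.

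Snord72, a C/D box RNA in an intron of the ribosomal protein gene Rpl37, had 0, 0 and 4 reads in NP-D@MP and 0 in each NP-D@M library. It had 35, 58 and 59 reads in NP@M and 65, 52 and 44 reads in PBS. All libraries with D were below all without it. It was at least 4.4-fold lower in NP-D@M than in NP@M against 3 reads per library and at least 15.7-fold lower on table reads (limma adjusted p = 3.45e-05 and 2.89e-07), and its log2 change in NP-D@MP over PBS was -3.52 ± 0.62 (limma adjusted p = 0.00021). Its host went the other way: Rpl37 stood at 935 ± 53.4 FPKM in NP-D@MP and 882 ± 205 in NP-D@M, against 74.1 ± 5.89 in NP@M and 76.1 ± 3.51 in PBS, and was called higher in both comparisons on both scalings.

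Gm27326 in Rpl23 and AF357399 in Rps16 had the same pattern. Gm27326 had 0, 1 and 0 reads in NP-D@MP and 0 in NP-D@M, against 25, 6 and 26 in NP@M and 26, 30 and 20 in PBS (log2 change -2.73 ± 0.42 in NP-D@M over NP@M, limma adjusted p = 7.23e-05, and -3.60 on table reads). AF357399 had 0, 1 and 2 reads in NP-D@MP and 6, 0 and 2 in NP-D@M, against 20, 34 and 47 in NP@M and 20, 33 and 33 in PBS (log2 change -1.80 ± 0.61 in NP-D@M over NP@M, limma adjusted p = 0.0158, and -3.10 on table reads). In FPKM, the AF357399 values of 5.72 in NP-D@M and 5.22 in NP@M overlapped. Both hosts encode ribosomal proteins and were called higher, with log2 changes of 2.73 for Rpl23 and 2.90 for Rps16 in NP-D@M over NP@M, and 0.90 and 1.07 on table reads.

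Gm26109, Gm22806 and Snora41 differ in their hosts. Gm26109, in the mitochondrial chaperone gene Hspa9, had 1 read over the 6 libraries with D, against 44, 66 and 9 in NP@M and 4, 50 and 25 in PBS (log2 change -3.46 ± 0.79 in NP-D@M over NP@M, limma adjusted p = 0.00148), while Hspa9 was called higher as deposited (log2 change 1.24) and lower on table reads (-0.60). Gm22806 lies in Cks2, a cofactor gene of the cyclin-dependent kinases, and shares 50.6% of its stretches of 50 bases with other genes. It had 3, 3 and 0 reads in NP-D@MP and 0, 0 and 1 in NP-D@M, against 17, 50 and 15 in NP@M and 22, 7 and 36 in PBS. Gene and host both were called lower in NP-D@M over NP@M, with log2 changes of -2.45 ± 0.63 for Gm22806 and -3.18 for Cks2 (limma adjusted p = 0.00321 and 1.49e-05), on table reads as well. In NP-D@MP over PBS Cks2 was called lower on both scalings (log2 change -2.93 as deposited), whereas Gm22806 was not called as deposited (-1.17 ± 0.63, limma adjusted p = 0.0979) and was called lower on table reads (-2.40, limma adjusted p = 0.00185). Snora41, an H/ACA RNA in the elongation factor gene Eef1b2, had 0 reads in NP-D@MP and 0, 4 and 4 in NP-D@M, against 17, 18 and 29 in NP@M and 7, 8 and 15 in PBS. It was called lower in NP-D@MP over PBS (log2 change -1.78 ± 0.51, limma adjusted p = 0.00582). Against 3 reads per library its bound there was 0.839-fold as deposited, which shows no fall, and 3.13-fold lower on table reads. In NP-D@M over NP@M Snora41 was called lower only on table reads (-2.38, limma adjusted p = 0.000145) and not as deposited (-1.09 ± 0.51, limma adjusted p = 0.0599).

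**Figure D5:**
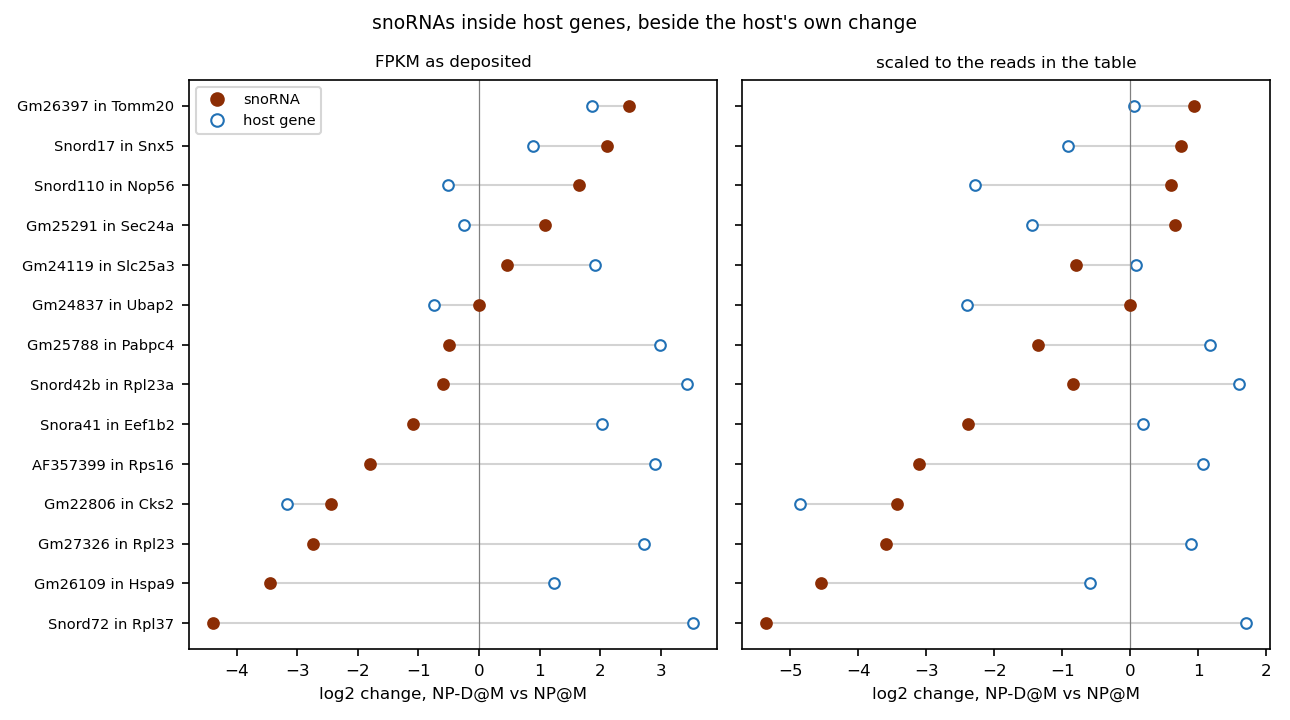
Log2 change in NP-D@M over NP@M of 14 snoRNAs that lie inside a host gene and were tested with it (filled points), beside the change of the host (open points), on log2(FPKM + 1) as deposited (left) and on table reads (right). Snord72, Gm27326 and AF357399 lie below 0 and Rpl37, Rpl23 and Rps16 above 0 in both panels.

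Over these 14 pairs in NP-D@M over NP@M, 5 snoRNAs were called lower, of which 4 lay in hosts called higher and 1 in a host called lower. Snord72, Gm27326, Gm26109 and Gm22806 passed the filter through the libraries without D alone. A call of higher was hardly open to them, so the counts of pairs are a description. Another 2, Gm26397 and Snord17, were called higher in hosts also called higher. On table reads 7 were called lower, 5 in hosts called higher and 2 in hosts called lower, and 0 higher: Gm26397 and Snord17 lost the call, Gm25788 and Snora41 were called lower, and Hspa9 and Snx5, the host of Snord17, were called lower (log2 change of Snx5 0.88 as deposited and -0.91 on table reads). As deposited, the other 7 were not called, 4 of them in hosts called higher, 2 in hosts called lower and 1 in a host not called. Snord42b in Rpl23a, which overlaps an exon in part, belongs to the 4: its log2 change was -0.60 ± 0.77 (limma adjusted p = 0.47), against 3.43 for Rpl23a. Of the hosted snoRNAs, 4 were called higher and 5 lower of 18 tested in NP-D@M over NP@M, and 1 and 7 on table reads. Of those with no GENCODE host, 6 were called higher and 2 lower of 8 tested on either scaling. Among those called higher, Snora17, Snord104 and Snora57 lie within the RefSeq intervals of Snhg7, Gm36220 and 5730408K05Rik, so the split by host depends on the annotation. Of all tested genes 41.8% were called higher and 47.7% lower as deposited, and 17.5% and 70.5% on table reads. Rnu3b4 in Tex14, Gm26397 in Tomm20, Snord17 in Snx5 and Gm24727 in Gsr were the hosted ones called higher as deposited, and Rnu3b4 alone kept the call on table reads.

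Gm22478 and Gm25965, with no host on their strand, were also called lower in NP-D@M over NP@M. Both passed the filter through the libraries without D alone. Gm22478, antisense to Snrnp70, the gene of a U1 particle protein, had 0 reads in all 6 libraries with D, against 32, 21 and 71 in NP@M and 29, 27 and 31 in PBS. It was at least 3.55-fold lower in NP-D@M than in NP@M against 3 reads per library (limma adjusted p = 5.78e-07) and at least 12.7-fold lower on table reads, bounds that rest on NP@M replicate 6, with 71 reads, and were 2.31-fold and 8.22-fold without it. Whether its reads came from either strand is not given by the data, since the strand setting is not stated. Gm25965, antisense to Pkn2, had 0 reads with D, 8, 12 and 7 in NP@M and 0, 0 and 3 in PBS, and was called lower in NP-D@M over NP@M (log2 change -2.04 ± 0.26, limma adjusted p = 1.33e-05). Against 3 reads per library its bound there was 0.784-fold as deposited, which shows no fall, and 2.79-fold lower on table reads. In NP-D@MP over PBS it was not called.

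NP@M was set against PBS to compare the preparation without D to PBS alone. Gm24837, a predicted snoRNA gene in an intron of Ubap2, was the single member called, 1 of 57 and lower, and also the single gene of all tested (0.0099% called lower and 0.0% higher). It had 0 reads in each NP@M library against 5, 5 and 4 in PBS (log2 change -1.55 ± 0.07, limma adjusted p = 2.64e-06), and 0 in all libraries with D. Gm24837 thus passed the filter through the PBS libraries alone. A call of higher was hardly open to it, so its call is a description. Against 3 reads per library it was at least 1.58-fold lower in NP@M than in PBS, and at least 1.57-fold lower on table reads. With limma voom on the recovered reads the adjusted p was 0.0563. A further 5 members had an unadjusted p under 0.05, among them Gm25965 (log2 change 1.67 ± 0.26, limma adjusted p = 0.142) and Snora17 (-0.70 ± 0.30, limma adjusted p = 0.456).

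The scaRNAs had too few reads for a firm statement. Gm22009, in Kpna4, had 5, 3 and 13 reads in NP-D@MP and 0, 10 and 11 in NP-D@M, against 1, 1 and 8 in NP@M and 0, 4 and 3 in PBS. Gm25492, in Bud23, had 9, 3 and 10 in NP-D@MP and 0, 4 and 8 in NP-D@M, against 8, 0 and 0 in NP@M and 2, 0 and 2 in PBS. Both were called higher in NP-D@MP over PBS as deposited (limma adjusted p = 0.026 and 0.00528) and not on table reads. Gm22442 had reads in 2 NP-D@MP libraries and 1 NP@M library, Gm22387 had 11 reads in 1 NP-D@M library, and neither passed the filter.

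Genes that make and hold these RNAs were counted from lists chosen by function. Of 18 tested genes of snoRNP core proteins, which bind snoRNAs, 7 were called higher and 9 lower in NP-D@M over NP@M (3 and 15 on table reads); Nhp2, of the H/ACA particle, stood at 642 ± 32.3 FPKM in NP-D@MP and 483 ± 111 in NP-D@M, against 26.6 ± 3.86 in NP@M and 33.2 ± 6.83 in PBS. Of 15 Sm and LSm genes, whose proteins ring the snRNAs, 10 were higher and 4 lower (8 and 5); Snrpd2 stood at 259 ± 6.41 and 228 ± 48.7, against 17.2 ± 1.70 and 19.0 ± 1.31 FPKM in the same groups, while Lsm10, of the U7 particle, stood at 0.0473 ± 0.0819 and 0.0431 ± 0.0746, against 7.13 ± 1.05 and 8.30 ± 1.17. The transcription and 3′ processing machinery of snRNAs, which includes the Integrator complex, had 4 of 28 higher and 20 lower (2 and 25). The median log2 change of these 28 was -0.79 in NP-D@M over NP@M, and -1.98 on table reads. Unlike most of them, the Integrator gene Ints1 was higher with D, at 37.4 ± 2.76 and 33.1 ± 2.85, against 5.52 ± 0.511 and 6.51 ± 0.336 FPKM.

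Genes of snRNP assembly and Cajal bodies had 3 of 20 higher and 15 lower (1 and 18). Ddx20, a helicase gene of the SMN complex that loads Sm proteins, stood at 0.426 ± 0.159 FPKM in NP-D@MP and 0.140 ± 0.0384 in NP-D@M, against 7.91 ± 0.511 in NP@M and 7.17 ± 0.112 in PBS. Ssb, the gene of the La protein that binds RNA polymerase III transcripts, stood at 7.84 ± 0.933 and 8.78 ± 3.48, against 44.5 ± 5.34 and 36.5 ± 5.61 FPKM. Genes of small RNA decay and trimming, most of them of the nuclear exosome, had 2 of 20 higher and 17 lower (0 and 20). Exosc10, a nuclease gene of the exosome, was not called in NP-D@M over NP@M as deposited (log2 change -0.10, limma adjusted p = 0.399) and was -1.85 on table reads, and Mphosph6, of an exosome cofactor, stood at 0.187 ± 0.237 and 0.192 ± 0.142, against 4.61 ± 0.498 and 4.77 ± 0.251 FPKM. Of 38 tested host genes of snoRNAs, 23 were higher and 11 lower (12 and 23). In NP-D@MP over PBS the counts higher and lower were 7 and 9 for snoRNP core proteins, 10 and 4 for Sm and LSm proteins, 4 and 19 for transcription and processing, 4 and 14 for assembly, 2 and 16 for decay and 23 and 12 for host genes. Beside these counts stand the 41.8% and 47.7% of all tested genes called higher and lower in NP-D@M over NP@M (17.5% and 70.5% on table reads), and the 43.2% and 47.3% in NP-D@MP over PBS.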

How the data were processed

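FPKM of 12584 genes, with gene types, coordinates and lengths, are what the authors deposited. Bowtie 0.12.2 and mm8 are named per the submitters' processing notes, while identifiers and coordinates match GRCm38: all 71 members have the coordinates of GENCODE M21. The gene counter, strand setting and gene choice are not given in the sources used here. Groups came from the sample titles, with no shared replicate numbers; the protocol speaks of retinas. Since separate cultures are not stated, the p-values capture the spread among these libraries, which may be technical. That spread is pooled for each gene over all libraries of the fit, not only those compared. Groups without any read add no spread and so lower the SE of members such as Gm24837 and Gm22818. For Gm24837 in NP@M over PBS the limma adjusted p was 2.64e-06, and 0.000978 with only the compared libraries fitted.

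Reads were recovered from FPKM and length (Python 3.11.15, pandas 2.3.3). limma 3.58.1 in R 4.3.3 tested log2(FPKM + 1), which understates changes of low genes, over all genes passing the filter; steps were tested on simulated data. Bounds against groups at 0 use 3 reads per library and cover counting error only. Sequence identity was computed with Biopython 1.88, and copies sharing 50-base words were taken as uncertain.

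The text names members fixed by family or role, all scaRNAs, the 8 highest in PBS and, per comparison, the 8 largest rises and falls among called members whose groups do not overlap, with their hosts, except a host gene and some sequences not reported here; further members were named after their values were seen. The members, lists and rules were chosen with earlier results of these data known. As alternatives, values were scaled to table reads, by quantiles or by median ratios; 3 other filters, 0.1 as pseudocount, limma's trend and robust options, limma voom on recovered reads, only the 6 libraries compared, an adjusted p under 0.01 and leaving out each library were also run; the snoRNA total without Snora17 was chosen after seeing the data.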

Additional observations from a re-analysis of the deposited data

How the results depend on the processing

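The 36 named log2 changes were all of called members, most of them the largest changes without overlap of the groups. That choice favours stability. Of these 36, none turned direction under any alternative run, and 595 of 598 values kept their side of the threshold. Gm22818 in NP-D@MP over NP-D@M lost its call under limma voom and with only the 6 libraries compared. Gm24837 in NP@M over PBS lost its call under limma voom. Outside those 36, among members and hosts called on either scaling, Gm26397 in NP-D@MP over PBS (-0.25) and the hosts Hspa9 and Snx5 in NP-D@M over NP@M (-0.60 and -0.91) and in NP-D@MP over PBS (-0.62 and -0.69) turned on table reads, as did Snord55, uncalled, in NP-D@M over NP@M (-0.75). With a mean of at least 5 FPKM, 3 members were called lower in NP-D@M over NP@M, 26 higher and 3 lower in NP-D@MP over PBS, and 0 lower in NP@M over PBS, since fewer members were tested. In NP-D@MP over NP-D@M 0 members were called lower under limma voom and 0 with only the 6 libraries. In NP@M over PBS 0 were called lower with at least 10 reads in at least 3 libraries, a filter Gm24837 could not pass, and 0 under limma voom, and quantile normalization called 1 higher, Gm25965; the cause was not tested for the last 2 of these. Without Snora17 the snoRNA total was 23.6 reads per M reads in the table in NP-D@MP and 25.0 in NP-D@M.

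Leaving out each library in turn gave 33 to 39 members higher and 6 to 9 lower in NP-D@M over NP@M, 0 to 5 and 1 to 4 in NP-D@MP over NP-D@M, 38 to 42 and 7 to 8 in NP-D@MP over PBS, and 0 to 1 and 1 to 1 in NP@M over PBS. In NP-D@MP over NP-D@M the additional calls came without NP-D@M replicate 9 (5 higher, 4 lower), NP-D@M replicate 7 (1 and 3) and NP-D@MP replicate 12 (1 and 2), and in NP@M over PBS without PBS replicate 3 (Gm25965 higher). The class totals in reads per M reads in the table ran, for snRNAs, from 151 to 157 in NP-D@MP, 164 to 185 in NP-D@M, 1.35 to 2.89 in NP@M and 1.88 to 2.0 in PBS; for snoRNAs from 144 to 151, 173 to 207, 23.0 to 25.7 and 22.4 to 25.7; and for scaRNAs from 0.959 to 1.47, 0.636 to 1.61, 0.327 to 0.682 and 0.191 to 0.307 in the same order of groups. Of 360 list counts under alternatives, 316 stayed within 1.5 times the value given.

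Most members have under 50 reads in a library, so single reads move their FPKM, and with D a single read can pass the filter of 1 FPKM. Levels of identical copies are uncertain one by one. No paired analysis was possible because the groups share no replicate number.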
